A study of Mus musculus with 12 samples.

Results

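The nuclear genes of oxidative phosphorylation were examined as a set in left ventricles of mice overexpressing mutant integrin-linked kinase (ILK) in the heart. A gene was taken as a member when a probe set of the array named it alone and its symbol began with Nduf, Uqcr, Atp5 or Cox4 to Cox8 followed by a letter, or was Sdha, Sdhb, Sdhc, Sdhd or Cyc1. This gave 91 of the 18193 genes named alone on the array, and each was read from its brightest probe set. Of these, 34 belong to complex I, 4 to complex II, 9 to complex III, 17 to complex IV and 17 to complex V. The remaining 10 (the Ndufaf genes, Ndufa4l2 and Cox7a2l) are assembly or associated factors that the symbols brought in. A probe set was tested when its mean log2 signal over all hearts was at least 5.44, a signal of 43.5, which is the median of all probe sets, and 88 members passed. Ndufb4, Cox6b2 and Cox7b2 lay below it, with mean signals of 31.3, 41.4 and 15.6 in wild-type hearts, and no differences are given for them.

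Oxidative phosphorylation takes place in the inner mitochondrial membrane. Complex I (NADH dehydrogenase) and complex II (succinate dehydrogenase) pass electrons to ubiquinone, complex III (the cytochrome bc1 complex) passes them on to cytochrome c, and complex IV (cytochrome c oxidase) reduces oxygen. Complexes I, III and IV pump protons, and complex V, the ATP synthase, uses their return to make ATP. The working heart obtains most of its ATP in this way and is among the tissues richest in mitochondria, and most subunits are encoded in the nucleus while a smaller part is encoded in mitochondrial DNA.

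All 12 hearts came from C57BL/6 mice of 8 to 9 weeks. There were 3 genotypes. TgR211A hearts (n = 3) carried a cardiac-specific transgene of ILK with a mutation in its pleckstrin homology domain, which impairs binding of the lipid PIP3 and makes the kinase resistant to activation through PI3-kinase. TgS343D hearts (n = 3) carried ILK with a mutation that makes it constitutively active, and both lines kept their own mouse Ilk gene. Wild-type littermates (WT, n = 6) came as a first and a second set of 3, and the first set shares heart numbers 1 to 6 with TgS343D while the second shares 7 to 12 with TgR211A, so the line and the range of heart numbers cannot be told apart between the lines. The labels name no surgery, although the study's methods describe infarct groups for these hybridizations. By the labels, replicate 1 of the first WT set was a male and every other mouse a female. Its signal of Xist, the transcript that silences an X chromosome in females, was 718.2 against 703.2 to 864.3 in the other 11 hearts, and that of the Y-linked Eif2s3y was 4.47 against 0.636 to 8.17, which goes against the label.

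The Ilk probe set followed the genotype labels, with signals of 8223, 9553 and 8622 in the TgR211A hearts, 3258, 3272 and 4016 in the TgS343D hearts and 551.2 to 656.6 in WT. How well these mouse probes detect the transgene was not tested. Single array pairs correlated at 0.969 to 0.983 over log2 signals, and the trimmed mean signal that the scaling sets was 149.4 on every array. All 14 cardiomyocyte markers fixed for the check of the tissue passed the filter, Myh6, Actc1, Tnnt2 and Myl2 among them, and none passed the threshold in any comparison. Since this is bulk RNA, fewer cells of a type and less RNA per cell cannot be told apart.

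None of the 88 tested members passed the threshold of an adjusted p of 0.05 in any comparison by limma. In TgR211A against WT 0.204% of all 22519 tested probe sets passed it, in TgS343D against WT 0.00444%, in TgR211A against TgS343D 0.16% and in the first against the second WT set 0.00888%. At an unadjusted p under 0.05 the members were no more frequent when hearts were not paired. In TgR211A against WT they were Sdhc and Cox8a (2.27% of members against 7.51% of all tested probe sets), and in TgS343D against WT there was none (against 3.98%). In TgR211A against TgS343D they were Sdhc, Sdhd and Cox8a (3.41% against 8.45%), and between the WT sets Ndufa4l2 and Ndufaf1 (2.27% against 7.99%).

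The differences were small and, for most members, narrowly bounded. In TgR211A against WT the median log2 difference of the members was 0.001, with 44 above 0 and 44 below, from -0.15 for Ndufb1 to 0.21 for Cox8a. The median over all tested probe sets was also 0.001. The 95% interval of every one of the 88 members lay within a change of 1.5-fold in either direction, and that of 80 within 25% upward and the same fold downward. The intervals of the members reached 0.15 to either side of the log2 difference at the median, against 0.27 over all tested probe sets.

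In TgS343D against WT the median of the members was -0.059 on the log2 scale, with 76 of 88 below 0, against a median of 0.003 over all tested probe sets. The values ran from -0.15 for Atp5a1 to 0.20 for Ndufa4l2. Every interval again lay within 1.5-fold, and 79 lay within the 25% limit. The 2 comparisons with WT share the same 6 control hearts.

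In TgR211A against TgS343D the median was 0.068, with 74 of 88 above 0, against -0.005 over all tested probe sets. The values ran from -0.31 for Ndufa4l2 to 0.25 for Cox8a. Intervals of 86 members lay within 1.5-fold, the exceptions being Cox4i2 and Ndufa4l2, and 74 lay within the 25% limit. Between the first and the second WT set, where no difference in genotype is labelled, the median was 0.025 with 61 of 88 above 0. When each line was set against the WT set that shares its range of heart numbers, the median was 0.023 for TgR211A and -0.081 for TgS343D.

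**Figure D1:**
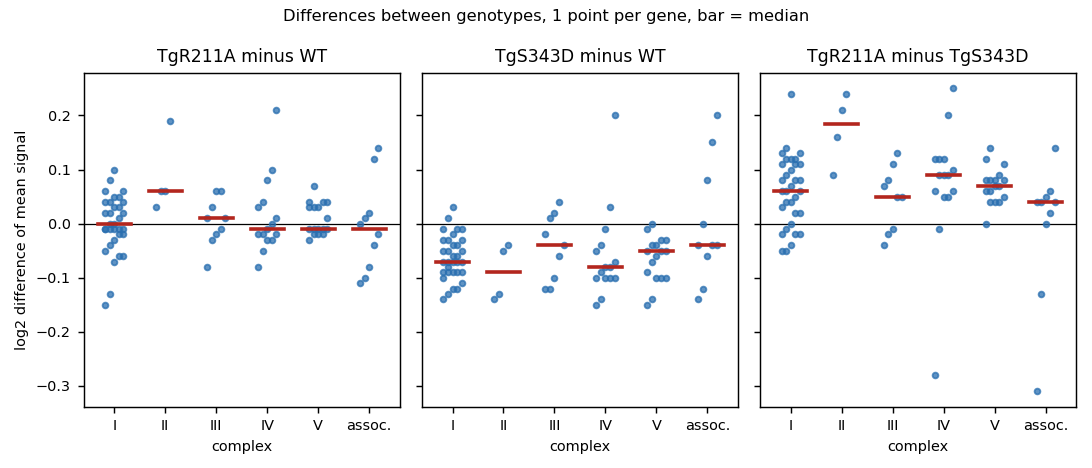
Log2 difference of mean signal for each of the 88 tested members (points) by complex, in 3 panels for TgR211A minus WT, TgS343D minus WT and TgR211A minus TgS343D, with the median of each complex as a bar. The points of TgR211A minus WT lie around 0 in complexes I, III, IV and V, most of those of TgS343D minus WT lie below 0 and most of those of TgR211A minus TgS343D above 0.

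Against WT, the median log2 differences of the complexes in TgR211A were -0.002 for complex I, 0.059 for complex II, 0.005 for complex III, -0.012 for complex IV and -0.005 for complex V. Those of TgS343D were -0.066, -0.089, -0.042, -0.085 and -0.052 in the same order. In TgR211A against TgS343D they were 0.064, 0.184, 0.048, 0.089 and 0.075, and all 17 members of complex V lay above 0. Complex II stood highest in both comparisons of TgR211A, but it has only 4 members and its median rests on them.

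Members whose hearts did not overlap between genotypes were few against WT and more between the lines. In TgR211A every heart lay above every WT heart for Sdhc alone (1.14% of members against 2.12% of all tested probe sets), and for no member did every heart lie below (against 1.95%). In TgS343D no member lay above all WT hearts (against 1.11%), and Ndufaf3 lay below (1.14% against 0.919%). In TgR211A against TgS343D, 14 members lay above in every heart (15.9% against 7.55%) and Ndufa4l2 below (1.14% against 7.4%). The 14 were Ndufa1, Ndufa9, Ndufab1, Ndufb5 and Ndufs1 of complex I, Sdhb, Sdhc and Sdhd of complex II, Cyc1 and Uqcrfs1 of complex III, Cox4i1, Cox8a and Cox8b of complex IV and Atp5g2 of complex V.

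These 14 depended on how the arrays were scaled. After quantile normalization 7 of the 88 members lay above and 10 below in every heart, against 7.42% and 7.3% of all tested probe sets. The median of TgR211A minus TgS343D was then 0 with 44 of 88 above 0, and that of TgS343D minus WT was -0.004. The members moved together from heart to heart, whatever the genotype. Relative to each member's mean over the 12 hearts, the median log2 signal of the members was 0.043, -0.053 and 0.092 in the first WT set and -0.022, 0.110 and -0.074 in the second. It was -0.042, -0.093 and -0.017 in the TgS343D hearts and -0.011, 0.122 and -0.034 in the TgR211A hearts. Replicate 2 of TgR211A held the highest signal of 32 members and replicate 2 of the second WT set that of 28, while replicate 2 of TgS343D held the lowest signal of 32 and replicate 3 of the second WT set that of 24. Thus the 3 groups overlapped in this shift, whose SD among hearts of a genotype was 0.07. Without replicate 2 of TgR211A, the median of TgR211A against TgS343D was 0.019, and without replicate 2 of TgS343D it was 0.043.

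**Figure D2:**
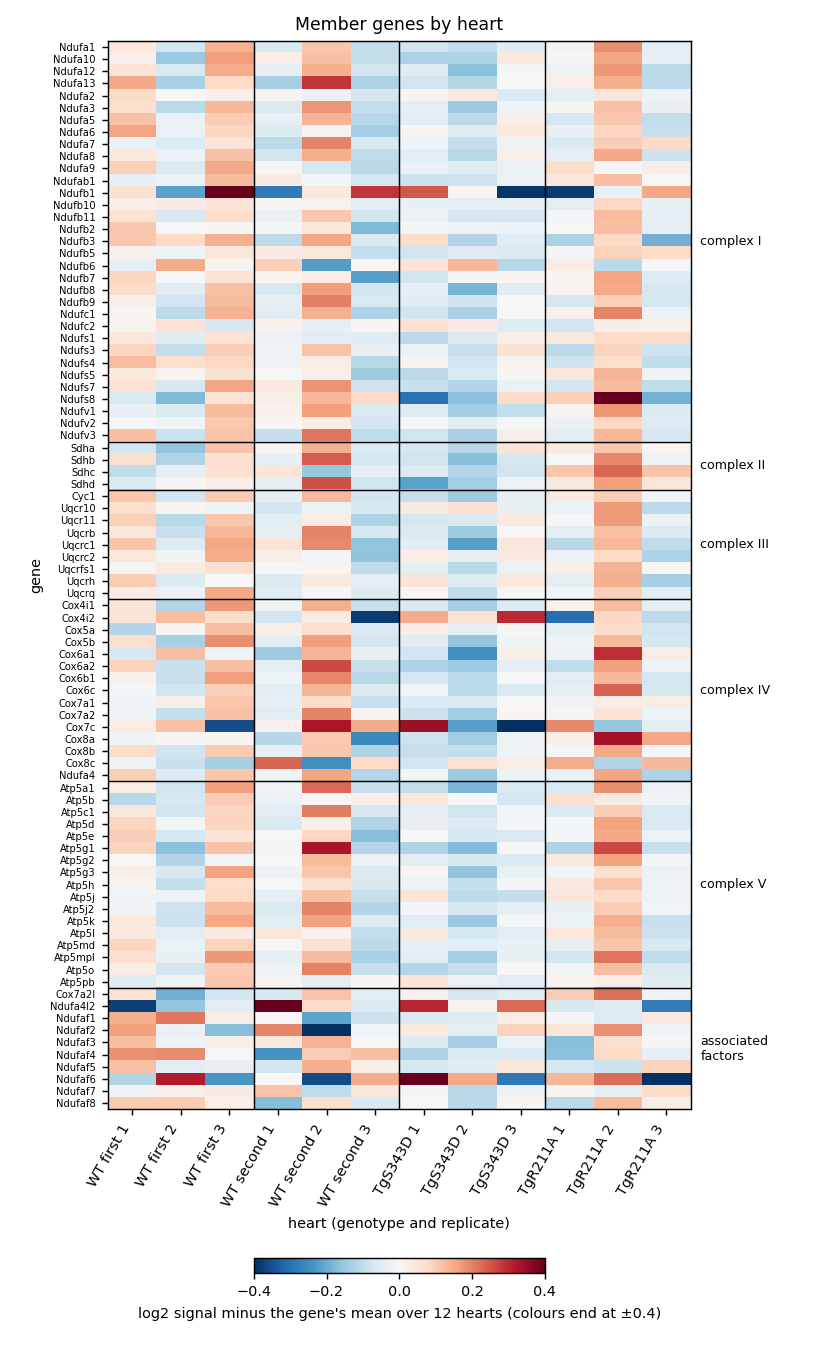
Log2 signal of each of the 88 tested members in each of the 12 hearts, minus that member's mean over the hearts (red above, blue below, colours ending at 0.4), with members in rows by complex and hearts in columns by genotype. Replicate 3 of the first WT set, replicate 2 of the second and replicate 2 of TgR211A are mostly red across complexes I to V, and replicate 2 of TgS343D and replicate 3 of the second WT set mostly blue.

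Other bright probe sets moved with them. Of the members, 68 were brighter on average than 99% of all probe sets, and 319 probe sets outside the set reached a mean log2 signal of at least 11.97, the lower quartile of the tested members. The median deviation of these 319 followed that of the members in every heart, with 0.025, -0.057 and 0.088 in the first WT set and -0.029, 0.107 and -0.060 in the second. It was -0.024, -0.077 and -0.036 in TgS343D and -0.011, 0.117 and -0.023 in TgR211A. Over all tested probe sets the median deviation stayed between -0.009 and 0.015. Quantile normalization, which gives every array the same distribution of signals, brought the members to between -0.017 and 0.022 in all hearts. Most members are among the brightest probe sets, where this step removes a shift shared by bright probe sets, whatever its source. Whether the difference between the lines comes from the members themselves or from the scale of bright signals was not tested beyond these values.

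**Figure D3:**
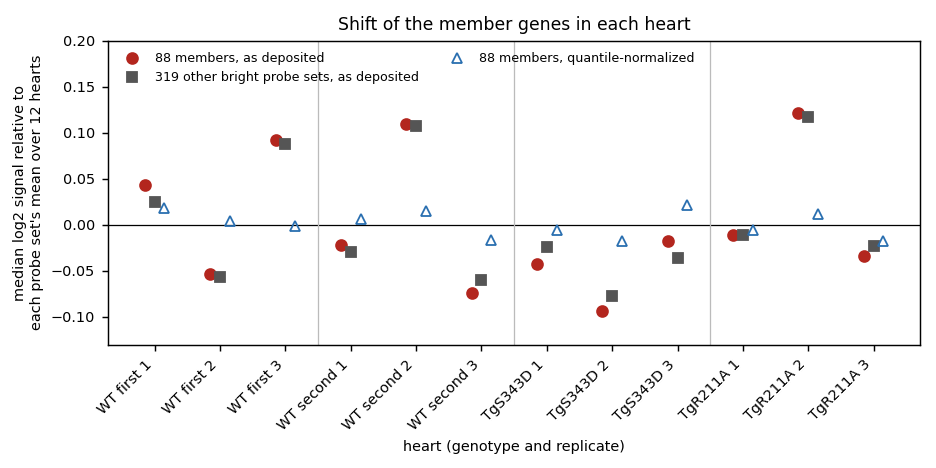
Median deviation of log2 signal from each probe set's mean over 12 hearts, for the 88 tested members as deposited (circles), for 319 other bright probe sets as deposited (squares) and for the members after quantile normalization (triangles), by heart. Circles and squares lie side by side in each heart, from -0.093 in replicate 2 of TgS343D to 0.122 in replicate 2 of TgR211A for the members, and the triangles stay between -0.017 and 0.022.

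Within each line and its own WT set, hearts of the same replicate number also have neighbouring heart numbers. Over the 3 such pairs of TgS343D and the first WT set, the shift of the members was -0.085, -0.040 and -0.109 (line minus WT), and 16, 17 and 11 of the 88 members lay above 0. Over the 3 pairs of TgR211A and the second WT set it was 0.010, 0.013 and 0.040, with 53, 52 and 66 members above 0. The shift thus had 1 sign within the pairs of each line, although the groups overlapped. That of the other bright probe sets was -0.049, -0.021 and -0.124 in the first 3 pairs and 0.018, 0.011 and 0.037 in the others. In a fit with these pairs as blocks, 28 members had an unadjusted p under 0.05 in TgS343D (31.8% against 7.38% of all tested probe sets), 4 in TgR211A (4.55% against 9.46%) and 21 in the difference between the lines (23.9% against 9.64%), and none passed the threshold by limma. After quantile normalization these counts were 3, 4 and 2 (3.41%, 4.55% and 2.27% against 6.47%, 9.35% and 8.57% of all tested probe sets). With arrays centred on the other bright probe sets they were 2, 3 and 2 (2.27%, 3.41% and 2.27% against 9.02%, 9.35% and 11.1%). Members share this shift from heart to heart, so they do not count as separate observations of it.

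Complex II oxidizes succinate and is the member of the chain that also works in the tricarboxylic acid cycle. Its anchor in the membrane is formed by Sdhc and Sdhd. The Sdhc signal, from its brightest probe set, was 5236, 5697 and 5240 in the TgR211A hearts, 4661, 4471 and 4585 in the TgS343D hearts and 4365 to 5067 in WT with a median of 4725. Every TgR211A heart lay above all 9 others, and TgS343D hearts lay within the WT range. The means were 5391 ± 265 in TgR211A (SD, n = 3), 4572 ± 95.9 in TgS343D (SD, n = 3) and 4736 ± 274 in WT (SD, n = 6). The log2 difference was 0.19 against WT (95% interval 0.07 to 0.31, standard error 0.0571) and 0.24 against TgS343D (0.10 to 0.38), and neither passed the threshold (adjusted p = 0.35 and adjusted p = 0.281 by limma). Leaving out any heart gave 0.15 to 0.21 against WT, with 0.15 without replicate 2 of TgR211A and 0.17 without the WT heart labelled male. The second tested probe set of Sdhc gave 0.08 for TgR211A against WT, -0.18 for TgS343D against WT and 0.25 between the lines (adjusted p = 0.859, 0.995 and 0.272 by limma). Both probe sets of Sdhc thus set the lines apart to a like degree, while they placed the WT hearts differently.

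Sdhd, the other anchor subunit, had signals of 4086, 4458 and 4112 in TgR211A, 3435, 3624 and 3922 in TgS343D and 3767 to 4762 in WT with a median of 3934. The lines did not overlap with each other, and both overlapped with WT, whose replicate 2 of the second set held the highest signal of all. The log2 difference was 0.06 for TgR211A against WT, -0.14 for TgS343D against WT and 0.21 between the lines (0.03 to 0.39, adjusted p = 0.535 by limma). After quantile normalization the difference between the lines was 0.13.

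Sdha and Sdhb form the catalytic head, the first carrying the flavin and the second the iron-sulfur clusters. Sdha signals were 6516, 6826 and 6369 in TgR211A, 6035, 5862 and 6583 in TgS343D and 5678 to 6992 in WT, so that all groups overlapped. Sdhb signals were 8024, 9147 and 7904 in TgR211A, 7590, 7123 and 7644 in TgS343D and 7381 to 9474 in WT, apart between the lines and overlapping with WT. Against WT, the log2 differences of TgR211A were 0.06 for Sdha (-0.09 to 0.20) and 0.03 for Sdhb (-0.13 to 0.19), and those of TgS343D were -0.04 (-0.18 to 0.11) and -0.13 (-0.29 to 0.03).

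**Figure D4:**
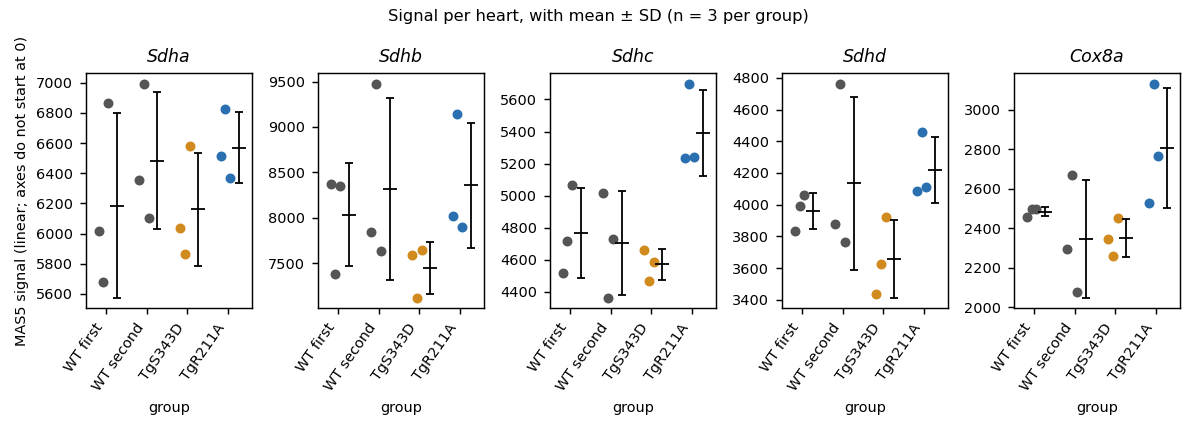
Signal in each heart for the 4 subunits of complex II and for Cox8a of complex IV (1 panel each, linear axes that do not start at 0), with the mean and SD of each group of 3 beside its points. For Sdhc the TgR211A hearts, at 5236 to 5697, lie above the other 9, and for the other genes the groups overlap with WT in part or in whole.

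The promoters of 4 members from the 14 above are shown because nuclear respiratory genes are known to share sites for the factors NRF1, GABP (an ETS factor), YY1 and the estrogen-related receptors. Each is the stretch from 250 bases before to 50 bases after a start of the gene, on the gene's strand, from RefSeq with build GRCm38.p6, and capitals mark matches to the letters searched. Sdhb lies at chr4:140961021-140961320 on the plus strand, Sdhd at chr9:50603800-50604099 on the minus strand, Cox8a at chr19:7217567-7217866 on the minus strand and Cox8b at chr7:140900397-140900696 on the minus strand.
Sdhb: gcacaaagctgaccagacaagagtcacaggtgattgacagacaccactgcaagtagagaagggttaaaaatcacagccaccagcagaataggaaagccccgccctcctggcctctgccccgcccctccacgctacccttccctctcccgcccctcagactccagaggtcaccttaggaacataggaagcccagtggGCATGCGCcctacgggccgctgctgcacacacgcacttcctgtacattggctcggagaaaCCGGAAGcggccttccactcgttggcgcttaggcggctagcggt
Sdhd: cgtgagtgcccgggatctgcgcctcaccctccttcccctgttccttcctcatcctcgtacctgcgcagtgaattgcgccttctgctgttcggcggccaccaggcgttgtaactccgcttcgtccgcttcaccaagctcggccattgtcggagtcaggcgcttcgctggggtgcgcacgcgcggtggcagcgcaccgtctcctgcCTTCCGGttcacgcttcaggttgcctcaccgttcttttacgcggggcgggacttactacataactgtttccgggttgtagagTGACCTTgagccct
Cox8a: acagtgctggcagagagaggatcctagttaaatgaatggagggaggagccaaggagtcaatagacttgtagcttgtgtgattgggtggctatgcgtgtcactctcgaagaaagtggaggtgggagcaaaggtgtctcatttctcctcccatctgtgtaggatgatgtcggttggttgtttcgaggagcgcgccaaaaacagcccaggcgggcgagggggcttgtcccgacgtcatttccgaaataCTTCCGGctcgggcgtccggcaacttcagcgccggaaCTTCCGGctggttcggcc
Cox8b: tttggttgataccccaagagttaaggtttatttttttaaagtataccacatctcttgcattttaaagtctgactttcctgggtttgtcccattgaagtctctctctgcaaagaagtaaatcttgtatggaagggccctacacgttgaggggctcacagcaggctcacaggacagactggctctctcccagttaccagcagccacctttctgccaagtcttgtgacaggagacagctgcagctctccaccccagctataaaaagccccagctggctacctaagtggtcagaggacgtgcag
The letters searched, on both strands, were GCATGCGC for the factor NRF1. For the family of the estrogen-related receptors they were AAGGTCA. For the ETS factor GABP they were CCGGAAG, and for the factor YY1 they were AAGATGGC, which can overlap with the end of those for GABP. The Sdhb window held the letters of NRF1 and of GABP, that of Sdhd those of the estrogen-related receptors and of GABP on the opposite strand, and that of Cox8a those of GABP at 2 places on the opposite strand. The window of Cox8b, the muscle counterpart of Cox8a, held no match, which says only that these letters are not in it. Of the 91 members, 74 had a window in the table. NRF1 letters stood in 14.9% of them against 3.9% of 17492 protein-coding genes, those of the estrogen-related receptors in 10.8% against 4.7%, those of GABP in 25.7% against 12.9% and those of YY1 in 13.5% against 3.6%. Any of the 4 stood in 37 of the 74 members against 22.7% of all genes, with 15 of 31 in complex I, 10 of 15 in complex V and 3 of 12 in complex IV. A match is a description of the sequence and says nothing of binding in these hearts.

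Sdhc lies on chromosome 1 among genes that differed between TgR211A and WT. Of the 20 measured genes on each side of it, chosen after the values were seen, 4 passed the threshold in TgR211A against WT by limma (0.204% of all tested probe sets did). These were Uap1, with a log2 difference of 0.91 (adjusted p = 0.00316), Atf6 with -0.45 (adjusted p = 0.0148), Hsd17b7 with -0.58 (adjusted p = 0.0338) and Fcgr2b with -0.60 (adjusted p = 0.0485). An unadjusted p under 0.05 was reached by 15 of the 40, or 37.5% against 7.51% of all tested probe sets. Of these 15, 2 were higher and 13 lower. In TgS343D against WT none of the 40 reached either threshold. Between the lines, Uap1 and Hsd17b7 passed (0.16% of all tested probe sets did) and 13 of the 40 (32.5% against 8.45%) had an unadjusted p under 0.05. Among the neighbours nearest to Sdhc, Cfap126 had a log2 difference of -0.10 in TgR211A against WT and Pcp4l1 of -0.34 (adjusted p = 0.982 and 0.202). The neighbours that differed thus went both ways, and most of them lay below 0 while Sdhc lay above. Whether the position on chromosome 1 has a part in the Sdhc signal was not tested. The 91 members lay on 19 chromosomes, with at most 9 on a chromosome and 5 on chromosome 1.

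**Figure D5:**
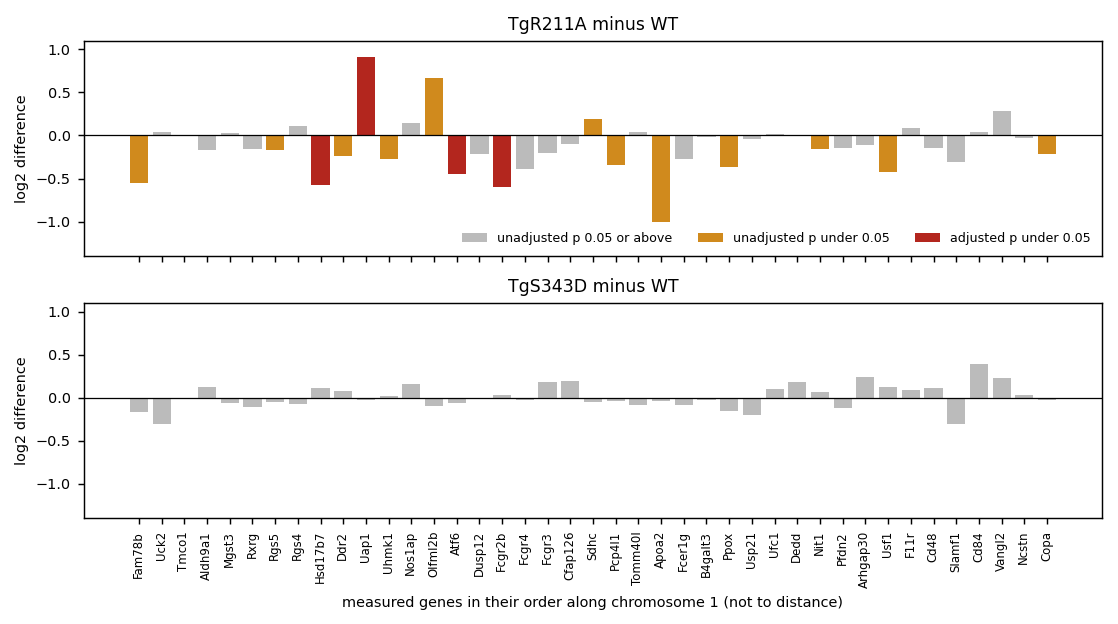
Log2 difference from WT in TgR211A (upper panel) and TgS343D (lower panel) for Sdhc and the 20 measured genes on each side of it, in gene order along chromosome 1 and not to distance. Colours mark an adjusted p under 0.05 (red), an unadjusted p under 0.05 alone (orange) or neither (grey), and all red and orange bars, Sdhc among the orange, lie in the TgR211A panel.

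Complex I, the entry point for electrons from NADH, had 33 tested members. Ndufs1, which holds most of the iron-sulfur clusters of the NADH-oxidizing module, had signals of 4240, 4357 and 4341 in TgR211A, 3829, 3966 and 4199 in TgS343D and 3976 to 4285 in WT. The TgR211A hearts lay close together and above all TgS343D hearts, with a log2 difference of 0.08 against WT (-0.03 to 0.18) and 0.11 between the lines (-0.01 to 0.23). Ndufv1, which binds NADH, had signals of 5359, 6026 and 5138 in TgR211A, 5147, 4844 and 4982 in TgS343D and 5122 to 5969 in WT, and the log2 difference of TgS343D against WT was -0.12 (-0.26 to 0.02).

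Near the ubiquinone site, Ndufs7 had a log2 difference of -0.06 in TgR211A (-0.21 to 0.09) and -0.13 in TgS343D (-0.28 to 0.02) against WT. Ndufs8, of the same module, varied among the hearts of a genotype, with signals of 6754, 8475 and 5543 in TgR211A and 5138, 5626 and 6653 in TgS343D. Its 6 probe sets ran from -0.20 to 0.46 in TgR211A against WT, on both sides of 0. Of the 27 accessory subunits, Ndufb5 had signals of 6675, 7159 and 7101 in TgR211A and 6353, 6492 and 6442 in TgS343D, apart by a log2 difference of 0.12 (adjusted p = 0.598 by limma). Ndufab1, which is also the acyl carrier protein of mitochondria, differed by 0.12 as well (adjusted p = 0.617 by limma). Its other tested probe sets lay on both sides of 0 between the lines. They ran from -0.22 (-0.41 to -0.03) for the next brightest to 0.15 (-0.28 to 0.57) for a dim one. Ndufs4, whose loss is known to impair complex I assembly, gave -0.07 (-0.20 to 0.06) in TgR211A and -0.05 (-0.18 to 0.08) in TgS343D against WT.

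In complex III, Cyc1 (cytochrome c1) and Uqcrfs1 (the Rieske iron-sulfur protein) carry the electrons to cytochrome c. Cyc1 signals were 7921, 8264 and 7641 in TgR211A, 7243, 6989 and 7551 in TgS343D and 7322 to 8446 in WT. The TgR211A hearts lay within the WT range and above all TgS343D hearts, with a log2 difference of 0.01 against WT (-0.12 to 0.14) and 0.13 between the lines (-0.02 to 0.28). Uqcrfs1 had signals of 6750, 7301 and 6677 in TgR211A, 6477, 6157 and 6520 in TgS343D and 6190 to 6943 in WT, again apart between the lines. The core protein Uqcrc1 gave -0.08 in TgR211A (-0.26 to 0.11) and -0.12 in TgS343D (-0.30 to 0.06) against WT, and the small subunits Uqcr11 and Uqcrb gave 0.06 and -0.02 in TgR211A.

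Complex IV is the part of the chain in which heart and skeletal muscle use subunit forms of their own. The muscle forms Cox6a2, Cox7a1 and Cox8b had log2 differences of -0.03, 0.00 and 0.04 in TgR211A against WT and of -0.15, -0.05 and -0.08 in TgS343D. For their widely expressed counterparts Cox6a1, Cox7a2 and Cox8a the values were 0.10, -0.01 and 0.21 in TgR211A and -0.10, -0.10 and -0.04 in TgS343D. Cox8a had signals of 2526, 3131 and 2764 in TgR211A, 2346, 2259 and 2452 in TgS343D and 2080 to 2670 in WT with a median of 2477. Replicates 2 and 3 of TgR211A lay above all WT hearts and replicate 1 within them, and the lines did not overlap. The means were 2807 ± 304 in TgR211A (SD, n = 3), 2353 ± 96.7 in TgS343D (SD, n = 3) and 2417 ± 204 in WT (SD, n = 6). The difference of 0.21 against WT (0.04 to 0.39) and that of 0.25 against TgS343D (0.05 to 0.45) did not pass (adjusted p = 0.537 and adjusted p = 0.475 by limma). Without replicate 2 of TgR211A the first was 0.13, and the second tested probe set of Cox8a gave 0.19 (0.03 to 0.34). By their names, the brighter probe set of Cox8a and the second of Sdhc hold some probes that match other sequences too. In all, 18 of the 88 tested members were read from probe sets with such names, Cox8a, Cox7a2l, Ndufab1 and Cox7c among them.

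The muscle form Cox8b had signals of 8130, 9026 and 8084 in TgR211A, 7620, 7588 and 8054 in TgS343D and 7479 to 8755 in WT. The lowest TgR211A heart lay just above the highest TgS343D heart, and the log2 difference was 0.12 (-0.04 to 0.27). Cox6a2 signals were 9315, 11183 and 9853 in TgR211A, 9164, 9025 and 9748 in TgS343D and 9398 to 12002 in WT, overlapping throughout. The main form of subunit 4, Cox4i1, gave 0.01 in TgR211A and -0.10 in TgS343D against WT. Its counterpart Cox4i2, known from lung, had low signals of 75.8, 99.2 and 87.0 in TgR211A and 104, 97.5 and 115 in TgS343D, with a log2 difference of -0.28 and a wide interval of -0.61 to 0.05. The WT sets differed in it by 0.22 (first minus second), with every signal of the first set above the 71.8 to 95.9 of the second, and against its own WT set each line gave 0.03 (TgR211A) and 0.09 (TgS343D). Ndufa4, named for complex I but a subunit of complex IV, gave -0.03 (-0.18 to 0.13) in TgR211A and -0.09 (-0.25 to 0.07) in TgS343D against WT. For Cox7c, known as a small subunit of every tissue, only dim probe sets named it alone, and all but the brightest lay below the filter. The brightest had signals of 63.6 to 107 over all hearts, and its standard error of 0.176 was among the largest of the set.

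In complex V the differences were small. All 17 members had a log2 difference within 0.1 of 0 and an interval within the 25% limit in TgR211A against WT. Atp5b, the catalytic beta subunit, had signals of 12076, 11837 and 11440 in TgR211A, 11892, 11560 and 10987 in TgS343D and 10679 to 12380 in WT, and log2 differences of 0.04 (-0.07 to 0.16) and 0.00 (-0.11 to 0.12) against WT. Its partner alpha subunit Atp5a1 gave -0.01 (-0.17 to 0.16) in TgR211A and -0.15 (-0.31 to 0.02) in TgS343D, with signals of 9992, 9413 and 10287 in the latter against 10037 to 12490 in WT. The other tested probe sets of Atp5a1 gave -0.07 (-0.27 to 0.12) and 0.08 (-0.11 to 0.27) in TgS343D against WT, on both sides of 0.

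The rotating c ring is built from identical proteins made by Atp5g1, Atp5g2 and Atp5g3. Against WT they gave -0.02, 0.07 and -0.02 in TgR211A and -0.14, -0.05 and -0.09 in TgS343D. Atp5g2 had signals of 4173, 4543 and 4036 in TgR211A and 3940, 3889 and 3900 in TgS343D, apart between the lines by a log2 difference of 0.12 (-0.02 to 0.26). Atp5h and Atp5o of the peripheral stalk gave 0.04 and -0.01 in TgR211A and -0.04 and -0.10 in TgS343D.

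Among the 10 associated factors, Ndufa4l2, a relative of Ndufa4 known to be induced by hypoxia, had signals of 254, 257 and 219 in TgR211A, 328, 269 and 312 in TgS343D and 206 to 354 in WT. The lines did not overlap, with a log2 difference of -0.31 (-0.65 to 0.02, adjusted p = 0.607 by limma), and the first WT set differed from the second by -0.33 (adjusted p = 0.58). Ndufaf3, a complex I assembly factor, had signals of 640, 606 and 654 in TgS343D, all below the WT hearts at 658 to 731, and 591, 696 and 666 in TgR211A. The gap to the lowest WT heart was small and the log2 difference of TgS343D was -0.12 (-0.26 to 0.02). Cox7a2l, known for a part in joining complexes III and IV, gave 0.14 in TgR211A (-0.01 to 0.29) and 0.00 in TgS343D (-0.15 to 0.15). Its other tested probe sets gave 0.14 (-0.03 to 0.30) and 0.18 (0.04 to 0.33) in TgR211A against WT. Neither passed the threshold (adjusted p = 0.753 and 0.543 by limma).

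All probe sets that name a member alone gave no other result. Of 165 tested, none passed the threshold by limma in any comparison. An unadjusted p under 0.05 was found for 5, 1, 8 and 8 of the 165 in TgR211A against WT, TgS343D against WT, the lines and the WT sets. Over all tested probe sets the shares were 7.51%, 3.98%, 8.45% and 7.99%. The 48 members with several tested probe sets had all of them on the same side of 0 in 27, 27, 26 and 28 cases. The median over the 77 probe sets that were not the brightest of their gene was 0.006, -0.035, 0.053 and 0.041.

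Of the genes that control or serve the chain, 1 passed the threshold. Among 19 tested regulators of mitochondrial biogenesis, Tfb2m, which helps to start transcription of mitochondrial DNA, had signals of 614, 776 and 672 in TgR211A, 912, 931 and 903 in TgS343D and 948 to 1161 in WT. All TgR211A hearts lay below all others, with a log2 difference of -0.59 against WT (-0.76 to -0.41, adjusted p = 0.00329 by limma) and -0.42 against TgS343D (adjusted p = 0.124). The call ended when arrays were centred on the median of all probe sets (-0.55, adjusted p = 0.0789) and with each TgR211A heart paired with its own WT set (-0.52, adjusted p = 0.0732), against 0.00135 to 0.038 under the other alternatives. The log2 difference itself ran from -0.68 to -0.51 over all 27 alternatives. Tfb2m also lies on chromosome 1. Ppargc1a, the coactivator PGC-1 alpha, had signals of 819, 805 and 768 in TgR211A, below all WT hearts at 834 to 1055, with a log2 difference of -0.21 (-0.37 to -0.05, adjusted p = 0.511). Nrf1 gave -0.29 in TgR211A, which did not pass the threshold, Esrra, the receptor ERR alpha, -0.06, and Tfam, which packages mitochondrial DNA, -0.01. The median of the 19 was -0.079 in TgR211A and -0.068 in TgS343D against WT.

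None passed among 36 tested assembly factors outside the rule, 15 genes of electron carriers and coenzyme Q synthesis, 15 of the tricarboxylic acid cycle and 10 of nucleotide and phosphate transport and creatine kinase. At an unadjusted p under 0.05 they held 4, 0, 0 and 0 genes in TgR211A against WT (7.51% of all tested probe sets), and 2, 0, 0 and 0 in TgS343D (3.98%). Their medians were 0.008, -0.010, 0.003 and 0.022 in TgR211A and -0.045, -0.065, -0.049 and -0.108 in TgS343D, against 0.001 and 0.003 over all tested probe sets. Cycs, cytochrome c, gave 0.00 in TgR211A and -0.03 in TgS343D against WT. Tmem70, which is needed to assemble complex V, gave 0.08 and -0.16, and 0.24 between the lines (adjusted p = 0.368 by limma). Ucp3, an uncoupling protein relative of muscle, differed between the lines by -0.96 (adjusted p = 0.345 by limma), and the first WT set lay above the second by 0.73 (adjusted p = 0.444). Against its own WT set TgR211A gave -0.10 and TgS343D 0.13. Of the 13 subunits encoded in mitochondrial DNA, ND5 of complex I was measured, with log2 differences of 0.02 in TgR211A and -0.09 in TgS343D against WT.

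Markers of the heart's cell types gave the following values beside these lists. The summed signal of the 14 cardiomyocyte markers was 122389 to 136525 in TgR211A, 121547 to 128177 in TgS343D and 122434 to 140321 in WT. Their median log2 difference was 0.004 in TgR211A and -0.082 in TgS343D against WT, and 0.104 between the lines, near the members' own medians, and their part in those was not tested. The 9 fibroblast markers had medians of 0.097 and 0.162 against WT, the 9 endothelial markers 0.035 and -0.025, the 9 macrophage markers -0.017 and 0.150 and the 4 tested smooth muscle markers 0.283 and 0.052 in TgR211A and TgS343D, and none of these markers passed the threshold. Summed macrophage signal was 3763 to 4360 in TgR211A, 4182 to 4971 in TgS343D and 3542 to 4996 in WT. Of the adipocyte markers, all 4 on the array lay below the filter. Their summed signal was 41.4 to 302.3 in TgR211A, 29.8 to 91.2 in TgS343D and 35.2 to 73.3 in WT. Of the erythroid markers 2 were tested and none passed. The median of these 2 was -0.06 in TgR211A and -0.503 in TgS343D against WT, and 0.442 between the lines.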

How the data were processed

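RNA of each heart was hybridized to an Affymetrix Mouse 430 2.0 array. The authors deposited MAS5 signal intensity on a linear scale, 1 array per mouse, scaled so that all arrays share a trimmed mean. No source used here gives the MAS5 version, the scaling target, detection calls or saturation, and arrays give no read depth, so their number limits the precision. Genes were named from the platform annotation, with 64 array controls left out. Chromosomes and gene order came from the RefSeq annotation of GRCm38.p6.

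Log2 signal was fitted with limma 3.58.1 in R 4.3.3 (linear models, empirical Bayes with a trend, 3 genotypes over 12 arrays, or 4 groups for the WT sets). Probe sets with a mean log2 signal of at least 5.44 were tested, p-values were two-sided, and Benjamini-Hochberg adjustment ran over all 22519, with a threshold of 0.05. No pseudocount was added. The fit was tested on simulated data. Differences are between group means of log2 signal, intervals cover 95%, and values of different genes' probe sets are not set against each other. Figures were drawn with matplotlib 3.10.9.

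The members, the gene lists and the complexes were chosen with earlier results of these data known. Named were Ilk, the members of complexes I, III, IV and V with the 3 smallest p per comparison, complex II with Cyc1, the isoform pairs, the 2 associated factors and the 2 genes per list with the smallest p, and Ppargc1a, Esrra, Nrf1, Tfam and Tfb2m, as far as they are discussed. Cox7c, Ndufs8, Ndufa9, Ndufb1, Ndufa1, Cycs and the neighbours of Sdhc were named after their values were seen. Ndufaf1 and Cox7a2l follow the rule. Mice of a genotype are separate animals by their labels. Alternatives covered scaling, filters, the offset, the variance model, controls, pairs of hearts, probe set choice and each heart left out.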

Additional observations from a re-analysis of the deposited data

Results flagged for a closer look

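Among the 38 named members, replicate 2 of the second WT set stood apart from the other WT hearts for Sdhd, with a gap of 0.682 of the group's whole range to the nearest heart, at a signal of 4762. Chance flags about 1 in 20 groups of this kind. The signal of the same heart was the highest of all hearts for 28 of the 88 tested members.

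Ilk differed between the lines under the same contrast with WT, with a log2 difference of 1.33 of TgR211A minus TgS343D (adjusted p = 1.12e-05 by limma), so that the lines are compared at unequal signals of the transgene's gene.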

How the results depend on the processing

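The count of members past the threshold was 0 in all 4 comparisons under each of the alternatives run. Alternatives that change only how the variance is estimated, without array weights, or that add a replicate block over all groups cannot move a median difference. The median log2 difference of members stayed within 1 SD of its value (0.07, the spread of that median among hearts of a genotype) in all but 1. This limit is about as large as the medians of 0.068 between the lines and -0.059 for TgS343D against WT. A median that fell to 0 could thus count as unchanged, and the limit does not show that these medians were stable. With arrays centred on the other bright probe sets, an alternative chosen after seeing the data, the median of TgR211A against TgS343D was -0.006 in place of 0.068. Centring on the median of all probe sets moved it to 0.136, quantile normalization to 0, and the median of TgS343D against WT to -0.093 and -0.004. Leaving out each heart gave -0.034 to 0.034 for TgR211A against WT, -0.078 to -0.038 for TgS343D against WT and 0.019 to 0.106 between the lines. Tfb2m in TgR211A against TgS343D passed the threshold with array weights (-0.45, adjusted p = 0.0418) and with arrays centred on bright probe sets (-0.49, adjusted p = 0.0393), and the cause was not tested.

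Replicate numbers run within each line and its own WT set. The correlation of deviations of same-numbered hearts was 0.167, 0.179 and 0.119 for TgR211A with the second WT set, all over 0.1. It was 0.071, 0.209 and 0.170 for TgS343D with the first, where only replicate 1 lay under 0.1. Correlations between hearts of different replicate numbers were not computed. The values therefore cannot tell pairs of hearts from a shared range of heart numbers, in either line. With this replicate block, chosen after seeing the data, 0 members were called and the medians were 0.023, -0.081 and 0.103 for TgR211A, TgS343D and the difference between the lines. Over all probe sets 47 were called in TgR211A and 1 in TgS343D, against 33 and 1 for the same controls without pairs, and Tfb2m lost its call (-0.52, adjusted p = 0.0732). With the replicate block over all groups, which also joins hearts of unrelated sets, 0 members were called in each comparison and the medians were 0.001, -0.059 and 0.068. Each replicate number occurs equally often in every group, so neither block could move the medians from those of the same controls without it. Signals were taken as deposited, and how far bright probe sets had left the linear range is not known.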
